A study of Mus musculus with 4 samples.

Results

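BCL2 family RNA was measured with more or less CACUL1 in 3T3-L1, mouse preadipocytes that turn into fat cells under a hormone mixture. The members were 10 genes fixed by name: the survival genes Bcl2, Bcl2l1 and Mcl1, the effectors Bax and Bak1, the BH3-only genes Bcl2l11, Bid, Bad and Bbc3, and the mitophagy receptor Bcl2l13. Each of the 10 had 1 row of RefSeq transcripts among the 13085 genes of the deposited values, and 9 had at least 1 FPKM (fragments per kilobase, relative to the depth of each library) in all 4 libraries. Bcl2 was the exception.

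Of the 4 stable lines, FLAG-CACUL1 carried a CACUL1 expression vector and FLAG the empty vector, both selected with G418. The sh-CACUL1 line expressed a hairpin against Cacul1 and sh-Luc a hairpin against luciferase, both selected with hygromycin B. All were 3T3-L1 lines grown from drug-resistant colonies, and RNA was taken on day 8 after rosiglitazone (5 µM), IBMX (0.5 mM), insulin (5 µg/mL) and dexamethasone (1 µg/mL) had started differentiation. Each line gave 1 library, so no difference between lines has a replicate check and none was tested. Whether a line was 1 clone or a pool of colonies was not given.

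Depth, estimated from the steps of low FPKM values, was about 14400000 fragments in FLAG, 14300000 with FLAG-CACUL1, 24000000 in sh-Luc and 14900000 with sh-CACUL1. Intervals below are 95% counting intervals from these depths and cover neither culture nor library variation. Cacul1 itself measured 9.61 FPKM in FLAG against 11.8 in FLAG-CACUL1, and 10.2 in sh-Luc against 5.39 in sh-CACUL1. The species of the CACUL1 insert was not given. Cacul1 was thus highest in the overexpressing line and lowest in the knockdown line, although the log2 difference on the FPKM + 1 scale was 0.27 in the former and -0.82 in the latter. The labels call the cells preadipocytes, yet all 10 adipocyte markers had a row, and their summed level was 8550 FPKM in FLAG against 904 in FLAG-CACUL1, and 1780 in sh-Luc against 18100 in sh-CACUL1. In bulk RNA, fewer fat cells and less RNA of these genes per cell cannot be told apart.

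BCL2 family proteins control the release of cytochrome c from mitochondria, the step that commits a cell to intrinsic apoptosis. The effectors BAX and BAK1 form pores in the outer mitochondrial membrane, the survival proteins bind and restrain them, and the BH3-only proteins, which share a single short domain with the rest, either neutralise the survival proteins or activate the effectors. Many of these steps are set by phosphorylation, cleavage or protein turnover, which RNA levels do not show, and BCL2L13 sits on mitochondria, where it acts as a receptor for their removal by autophagy.

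The stretches upstream of 4 members that carry the results below are printed to show what kind of promoter they have. Each is taken from the 250 bases before a RefSeq start in GRCm38.p6, without any base inside the gene as RefSeq bounds it, and is written 5′ to 3′ on the gene's own strand. Capitals mark the GC box GGGCGG on either strand. Bax (NM_007527) lies on the minus strand of chromosome 7 (45461695 to 45466903), and the stretch is chr7:45466904-45467148. Bcl2l13 (NM_153516) lies on the plus strand of chromosome 6 (120836206 to 120892842), with the stretch chr6:120835980-120836205. Bcl2 (NM_177410) lies on the minus strand of chromosome 1 (106538176 to 106714290), with the stretch chr1:106714291-106714540. Bad (NM_007522) lies on the plus strand of chromosome 19 (6941861 to 6951905), and the stretch is chr19:6941611-6941860.
Bax: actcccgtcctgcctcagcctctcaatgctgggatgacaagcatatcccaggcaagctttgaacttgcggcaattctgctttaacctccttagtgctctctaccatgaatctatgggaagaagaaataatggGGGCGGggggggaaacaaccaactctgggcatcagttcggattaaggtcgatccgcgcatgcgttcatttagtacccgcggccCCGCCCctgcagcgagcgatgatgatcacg
Bcl2l13: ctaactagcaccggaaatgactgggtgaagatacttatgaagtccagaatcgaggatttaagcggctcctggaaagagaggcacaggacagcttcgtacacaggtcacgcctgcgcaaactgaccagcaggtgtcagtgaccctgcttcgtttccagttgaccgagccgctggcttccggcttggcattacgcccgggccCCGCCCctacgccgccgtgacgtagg
Bcl2: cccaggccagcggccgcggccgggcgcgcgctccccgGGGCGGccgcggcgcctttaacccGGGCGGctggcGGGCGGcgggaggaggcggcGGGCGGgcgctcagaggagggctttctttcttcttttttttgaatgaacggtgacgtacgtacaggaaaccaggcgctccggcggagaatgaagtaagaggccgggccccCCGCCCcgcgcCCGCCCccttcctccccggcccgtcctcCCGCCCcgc
Bad: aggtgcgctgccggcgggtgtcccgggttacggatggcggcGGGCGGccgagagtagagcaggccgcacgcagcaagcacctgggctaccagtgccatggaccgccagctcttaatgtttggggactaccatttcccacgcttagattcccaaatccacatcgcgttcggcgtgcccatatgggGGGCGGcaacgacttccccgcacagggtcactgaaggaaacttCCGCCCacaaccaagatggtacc

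These stretches held 2 GC boxes for Bax, 1 for Bcl2l13, 7 for Bcl2 and 3 for Bad, and their GC content was 54.3%, 58.4%, 74.8% and 62.8%, respectively. The Bid gene (NM_007544, minus strand, 120893119 to 120917062) is the neighbour of Bcl2l13 on chromosome 6. In GENCODE M21 exons of Bid and Bcl2l13 overlap on opposite strands, as do those of Bad with Gpr137, of Bak1 with Ggnbp1 and of Bcl2 with D630008O14Rik, and Bax overlaps Gm45808 on its own strand. Whether the counting used strand was not given, so reads from such stretches cannot be told apart.

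RefSeq listed 16 promoter windows of 250 bases before to 50 after a start for the 10 members, some of them overlapping, among 32851 for all genes. Of these 16, 11 windows of 8 members (68.8%) held a GC box, against 35.7% of all windows. Bak1 and Bcl2l1 had none in theirs. The median GC content was 65.7% against 52.7%, and the median number of CpG was 26.5 against 7.0.

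Other elements were in fewer member windows than the GC box was. The E-box CACGTG was in 2 member windows, of Bax and Bbc3 (12.5%, against 7.15% of all). The FOXO element TGTTTAC was in 2 windows, of Bcl2l11 and Bbc3 (12.5% against 3.65%). The CCAAT box CCAAT was in 4 (25.0% against 37.4%). The TATA box TATAAA (13.6% of all), the cAMP element TGACGTCA (1.79%) and the DR1 element of PPAR (0.0396%) were in 0 member windows, each searched on both strands. These matches describe letters only.

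Among the members, the pore-forming Bax was the most abundant RNA in 3 of the 4 libraries and Bcl2 the least abundant in all 4. The highest level was 148 FPKM for Bax in FLAG-CACUL1 and the lowest 0.791 FPKM for Bcl2 in FLAG. In FLAG the order was Bax, Mcl1, Bcl2l1, Bak1, Bad, Bid, Bbc3, Bcl2l13, Bcl2l11 and Bcl2, where Bad and Bid overlapped in their counting intervals, as did Bbc3 and Bcl2l13. Mcl1 was second in FLAG-CACUL1 and sh-Luc too, where its interval overlapped that of Bad, the next in order. In sh-CACUL1, Bid at 44.3 FPKM (42.0 to 46.6) stood above Bax at 42.2 FPKM (38.7 to 45.9), with overlapping intervals. Bid was thus first in the knockdown line and sixth in FLAG and FLAG-CACUL1.

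**Figure D1:**
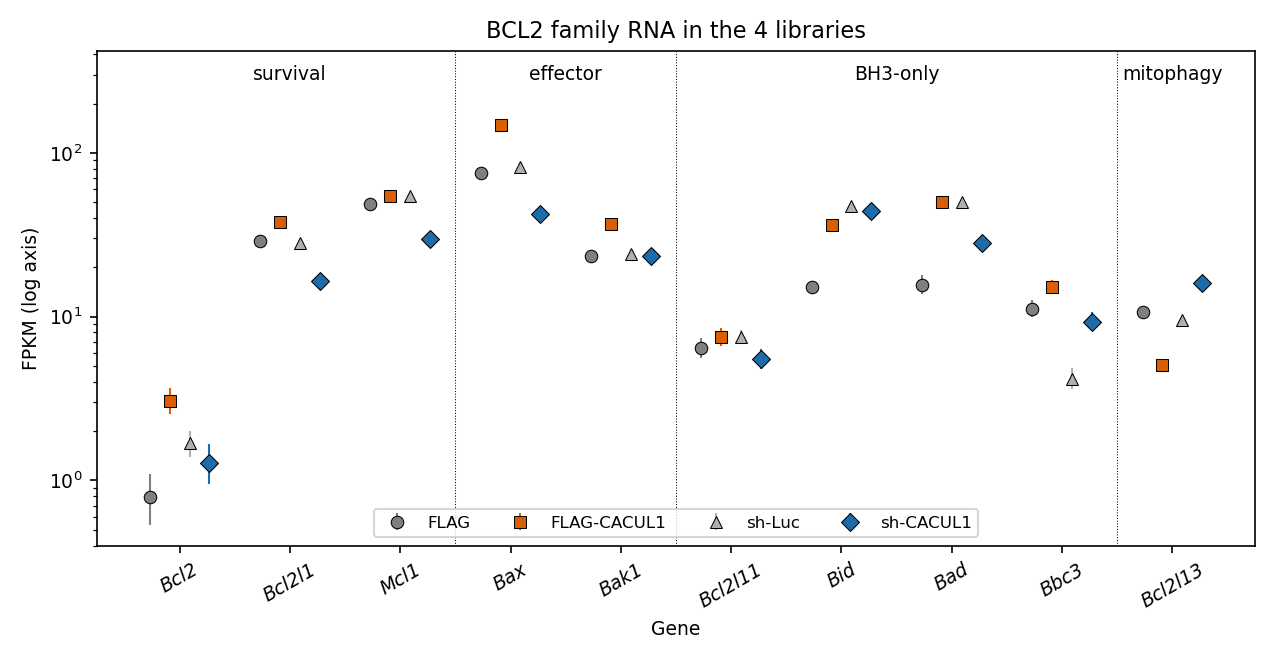
FPKM (log axis) of the 10 members in the 4 libraries, grouped by role, 1 point per library with its 95% counting interval as a bar. Bax is highest and Bcl2l13 lowest in FLAG-CACUL1, Bad and Bid are lowest in FLAG, and Bbc3 is lowest in sh-Luc.

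The levels varied across the libraries more for some members than for others. The highest library exceeded the lowest 3.86-fold for Bcl2, 3.64-fold for Bbc3 and 3.49-fold for Bax. At the other end stood Mcl1 (1.82-fold), Bak1 (1.57-fold) and Bcl2l11 (1.36-fold), which encodes the BH3-only protein BIM. The median over the 10 members was 3.16-fold, against 2.2-fold over the 9563 genes with at least 1 FPKM in all 4 libraries, of which the middle part, between quartiles, spanned 1.71-fold to 3.08-fold.

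The first comparison, FLAG-CACUL1 against FLAG, asks what more CACUL1 goes with. Of the 10 members, 9 were higher in FLAG-CACUL1 than in FLAG and 1, Bcl2l13, was lower, while 58.7% of all genes were higher without a cut-off. At 2-fold or more on the log2(FPKM + 1) scale stood 3 members, Bad, Bid and Bcl2, all of them higher, where 14.7% of all genes passed in either direction and 7.51% were higher. Bax, at 0.96, was just short of it. At 1.5-fold 6 members passed, against 34.3% of all genes. The median log2 difference was 0.51 for the members and 0.09 for all genes. Against sh-Luc in place of FLAG, 7 members were higher and 3 lower, where 39.9% of all genes were higher. Mcl1 and Bad, counted as higher, were at 0.00. Bcl2l11 (-0.01) and Bid (-0.36) took the other sign, and the member median was 0.21. Only 1 member then passed 2-fold, Bbc3, where 9.9% of all genes did.

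The second comparison, sh-CACUL1 against sh-Luc, asks what less CACUL1 goes with. Here 8 members were lower and 2, Bcl2l13 and Bbc3, were higher, where 68.7% of all genes were lower. None of the 10 passed 2-fold, against 21.3% of all genes, and Bbc3 came nearest at a log2 difference of 0.997. At 1.5-fold 6 passed, against 44.4% of all genes. With FLAG as the control 1 passed 2-fold, Bid, where 22.9% of all genes did. Against FLAG 4 members were higher and 6 lower, where 55.5% of all genes were lower. Bcl2, Bid, Bad and Bbc3 took the other sign there. Against sh-Luc the member median was -0.31, close to that of all genes, which was -0.30. Because the whole distribution was shifted, differences in this comparison are also given relative to -0.30. With quantile or median-of-ratios scaling 6 members were higher and 4 lower, since Bak1, Bcl2, Bcl2l11 and Bid took the other sign, and 2, Bcl2l13 and Bbc3, passed 2-fold, where 17.3% and 16.9% of all genes did.

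**Figure D2:**
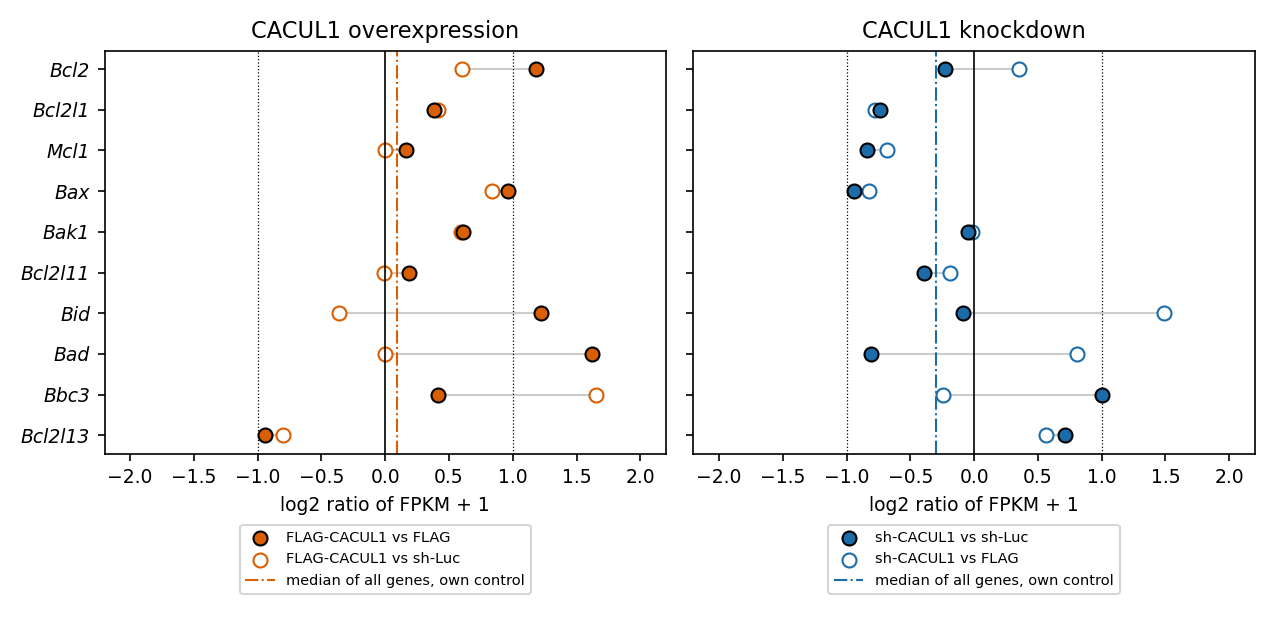
log2 ratio of FPKM + 1 for the 10 members, for overexpression (left) and knockdown (right), against the line's own control (filled) and the control of the other vector (open), with the median of all genes as a dash-dot line and 2-fold as dotted lines. Bax, Bak1, Bcl2l1 and Bcl2l13 change little with the control used, whereas Bid, Bad and Bbc3 move by more than 1 log2 unit.

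Bax and Bcl2l13 differed in opposite directions, and for each the controls lay between the overexpressing and the knockdown line. Bax measured 75.4 FPKM in FLAG (70.6 to 80.3) against 148 in FLAG-CACUL1 (141 to 154), and 82.0 in sh-Luc (78.2 to 86.0) against 42.2 in sh-CACUL1 (38.7 to 45.9). The log2 difference was 0.96 with more CACUL1 and -0.94 with less, or -0.64 relative to all genes. With the other control in place, it was 0.84 and -0.82.

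Bcl2l13, the mitophagy receptor, ran the other way, at 10.6 FPKM in FLAG (9.98 to 11.3) against 5.04 in FLAG-CACUL1 (4.60 to 5.50), and 9.50 in sh-Luc (9.04 to 9.98) against 16.1 in sh-CACUL1 (15.4 to 16.9). Its log2 difference was -0.94 with more CACUL1 and 0.71 with less, or 1.01 relative to all genes. With the other control it was -0.80 and 0.56. For both genes the signs also held under quantile and median-of-ratios scaling, though in the knockdown Bax was then -0.71 and -0.48, and Bcl2l13 1.18 and 1.14. Without a pseudocount Bcl2l13 passed 2-fold with more CACUL1, at a log2 ratio of -1.07 (-1.23 to -0.92). It also passed there with quantile and median-of-ratios scaling, at -1.04 and -1.06.

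That both controls lay between the lines, each at least 1.5-fold of FPKM away from both, held for 2 of the 10 members, Bax and Bcl2l13, and for 3.76% of all genes. With quantile or median-of-ratios scaling it held for Bcl2l13 alone, where 3.94% and 3.71% of all genes had it. This pattern and its scaled counts were chosen after the values of Bax and Bcl2l13 had been seen. Without a fold limit, FLAG-CACUL1 was highest and sh-CACUL1 lowest for 4 members, Bax, Bak1, Bcl2l1 and Mcl1, against 13.0% of all genes, and the reverse held for Bcl2l13, against 6.82% of all genes. With median-of-ratios scaling Bak1 left this order, and with quantile scaling Bak1 and Mcl1 did. For Mcl1 and Bak1 the order rested on differences within the counting intervals, Mcl1 in FLAG-CACUL1 against sh-Luc and Bak1 in sh-CACUL1 against both controls.

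As deposited, the summed adipocyte markers put the 4 lines in the same order as Bcl2l13 and in the reverse order of Bax, from 904 FPKM in FLAG-CACUL1 through 1780 in sh-Luc and 8550 in FLAG to 18100 in sh-CACUL1. The order of the controls in Bax turned with median-of-ratios scaling (78.8 in FLAG, 70.0 in sh-Luc). As deposited the counting intervals of their levels overlapped, though that of the log2 ratio, -0.24 to -0.01 without a pseudocount, left out 0. The place of sh-CACUL1 above FLAG came largely from Fabp4, at 12500 against 4990 FPKM, and 4 of the 10 markers, Plin1, Lpl, Pparg and Cebpa, were lower in sh-CACUL1 than FLAG. In FLAG 8 of the 10 markers were at least 2-fold higher than in sh-Luc, and Cidec (0.59) and Pnpla2 (-0.22) were not. Bax was 75.4 and 82.0 FPKM in FLAG and sh-Luc, and Bcl2l13 10.6 and 9.50. With more CACUL1 all 10 markers were lower by 2-fold or more, and with less CACUL1 all 10 were higher by 2-fold or more. The 8 preadipocyte or fibroblast markers with a row summed to 4950 FPKM in FLAG against 7760 in FLAG-CACUL1, and 3250 in sh-Luc against 642 in sh-CACUL1, most of it Col1a1 and Col3a1. With more CACUL1, 5 of the 8 were at least 2-fold higher and 1, Dlk1, lower, and with less CACUL1 5 were at least 2-fold lower and 2, Thy1 (4.41) and Dlk1 (4.19), higher. The part of differentiation in the Bax and Bcl2l13 differences was not tested.

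**Figure D3:**
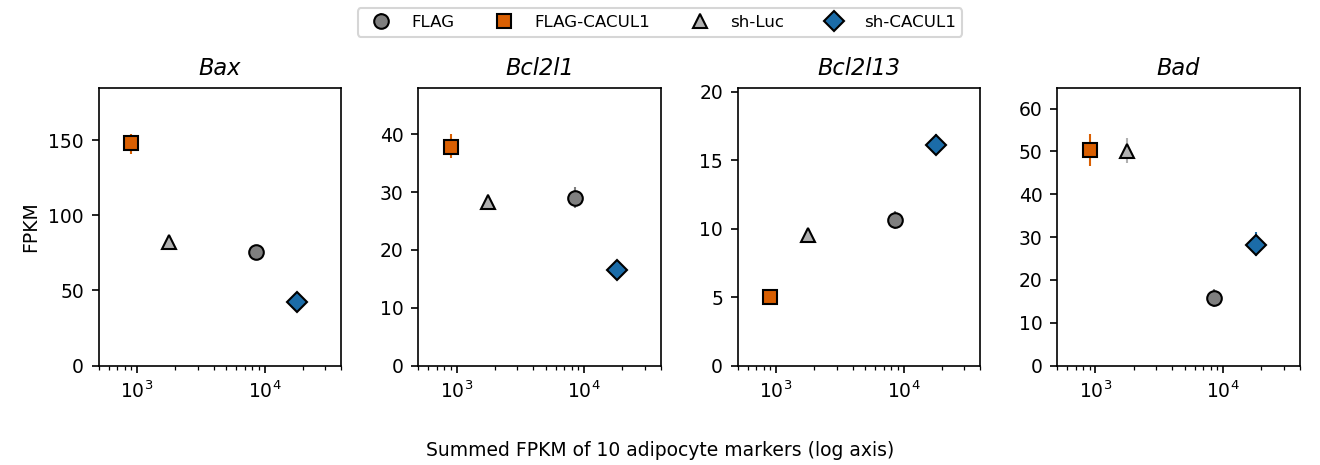
FPKM of Bax, Bcl2l1, Bcl2l13 and Bad (linear axes from 0) against the summed FPKM of 10 adipocyte markers (log axis), 1 point per library with its 95% counting interval. As deposited, Bax is lower and Bcl2l13 higher in libraries with a higher summed level, the intervals of Bax in the controls overlap, and Bad is lowest in FLAG, which has the second highest marker sum.

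Bak1, the other effector, was high in 1 line. It measured 23.6 FPKM in FLAG against 36.7 in FLAG-CACUL1, and 24.1 in sh-Luc against 23.3 in sh-CACUL1. The log2 difference with more CACUL1 was 0.61 (0.59 with the other control). In the knockdown it was -0.05 as deposited and 0.26 relative to all genes, so its sign depended on the scaling.

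Of the survival genes, Bcl2l1, which encodes BCL-XL, was high with more CACUL1 and low with less. It measured 29.0 FPKM in FLAG against 37.8 in FLAG-CACUL1, and 28.2 in sh-Luc against 16.5 in sh-CACUL1. Its log2 difference was 0.38 in the overexpressing line and -0.74 in the knockdown line, or -0.44 relative to all genes. With median-of-ratios scaling these were 0.24 and -0.29, and with quantile scaling 0.36 and -0.36. The controls were nearly alike, with a log2 difference of 0.03 between FLAG and sh-Luc (-0.08 to 0.15 without a pseudocount).

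Mcl1, a survival protein with a very short life, was set apart in the knockdown line alone. Its levels were 48.5 FPKM in FLAG against 54.4 in FLAG-CACUL1, and 54.2 in sh-Luc against 29.9 in sh-CACUL1. The log2 difference of the knockdown was -0.84, or -0.54 relative to all genes, -0.38 with median-of-ratios scaling and -0.68 with FLAG as the control. With more CACUL1 it was 0.16 against FLAG and 0.00 against sh-Luc.

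Bcl2, the gene the family is named after, was scarce throughout. It measured 0.791 FPKM in FLAG (0.534 to 1.10) against 3.06 in FLAG-CACUL1 (2.54 to 3.64), and 1.68 in sh-Luc (1.38 to 2.01) against 1.28 in sh-CACUL1 (0.957 to 1.66). These levels stand for about 32, 124, 114 and 54 fragments. FLAG-CACUL1 was the highest of the 4 and FLAG the lowest. The log2 difference with more CACUL1 was 1.18 on the FPKM + 1 scale and 1.95 (1.40 to 2.58) without a pseudocount, but 0.60 with sh-Luc as the control. In the knockdown it was -0.23 as deposited and 0.07 relative to all genes, and without a pseudocount the interval, -0.89 to 0.09, included 0.

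Bad and Bid passed 2-fold with more CACUL1, and both were lowest in FLAG. Bad, whose protein binds BCL-XL unless it is phosphorylated, measured 15.7 FPKM in FLAG (13.7 to 17.9) against 50.2 in FLAG-CACUL1 (46.6 to 54.0), and 50.1 in sh-Luc (47.2 to 53.0) against 28.2 in sh-CACUL1 (25.6 to 31.1). Its log2 difference was 1.62 against FLAG, the largest of the 10 members, and 0.00 against sh-Luc. The knockdown line was lower than sh-Luc by a log2 difference of -0.81, or -0.50 relative to all genes and -0.34 with median-of-ratios scaling, but higher than FLAG, by 0.81.

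Bid, which caspase-8 cleaves to carry a death receptor signal to mitochondria, measured 15.1 FPKM in FLAG (13.8 to 16.5) against 36.4 in FLAG-CACUL1 (34.4 to 38.6), and 47.2 in sh-Luc (45.3 to 49.0) against 44.3 in sh-CACUL1 (42.0 to 46.6). FLAG again lay below the other libraries, and the FLAG-CACUL1 level lay below both hairpin lines. The log2 difference with more CACUL1 was 1.22 against FLAG and -0.36 against sh-Luc, so its direction reversed with the control. In the knockdown it was -0.09 against sh-Luc, 0.21 relative to all genes and 1.49 against FLAG.

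The controls therefore differed from each other in members of this family. Between FLAG and sh-Luc 3 of the 10 members differed at least 2-fold, Bad (-1.61) and Bid (-1.58) lower and Bbc3 (1.23) higher in FLAG, where 21.0% of all genes did. These controls differ in vector, selection drug and depth, which cannot be told apart here. FLAG was also the library with the higher macrophage marker sum, 16.8 FPKM against 1.08 to 1.84 in the others, nearly all of it from Cd68 at 16.2 FPKM. Its part in the FLAG levels of Bad and Bid was not tested.

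Bbc3, which encodes the p53-induced protein PUMA, was low in the other control. It measured 11.2 FPKM in FLAG against 15.2 in FLAG-CACUL1, and 4.18 in sh-Luc against 9.33 in sh-CACUL1. FLAG-CACUL1 was highest and sh-Luc lowest. The log2 difference was 0.41 with more CACUL1 and 0.997 with less, and without a pseudocount the latter was 1.16 (0.88 to 1.45), past 2-fold. With FLAG as the control the knockdown value was -0.24, so its sign depended on the control. Proliferation marker RNA was highest in sh-Luc, at 50.8 FPKM against 16.1 to 19.1 in the others, and its part in the Bbc3 level was not tested.

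Bcl2l11 varied least. It measured 6.43 FPKM in FLAG against 7.48 in FLAG-CACUL1, and 7.52 in sh-Luc against 5.53 in sh-CACUL1. The log2 difference was 0.19 with more CACUL1, where the interval without a pseudocount, -0.06 to 0.48, included 0. With less CACUL1 it was -0.39, or -0.08 relative to all genes.

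Ratios between members within a library do not depend on a scaling factor between libraries. The survival genes summed to 78.2 FPKM in FLAG against 95.3 in FLAG-CACUL1, and 84.1 in sh-Luc against 47.6 in sh-CACUL1, and the effectors to 99.0, 184, 106 and 65.5 FPKM in the same order. Survival over effector RNA was thus 0.790 in FLAG against 0.517 in FLAG-CACUL1, and 0.793 in sh-Luc against 0.727 in sh-CACUL1. FLAG-CACUL1 stood below the other 3 lines. On the log2 scale FLAG-CACUL1 minus FLAG was -0.61 and FLAG-CACUL1 minus sh-Luc -0.62, whereas sh-CACUL1 minus sh-Luc was -0.13 and sh-CACUL1 minus FLAG -0.12. The standard error of each log2 ratio from counting was between 0.0339 and 0.0537, and the controls differed by -0.01. Survival RNA too was highest in FLAG-CACUL1, and Bax made up 37.5% of the members' FPKM there, against 31.9% in FLAG, 26.6% in sh-Luc and 19.5% for sh-CACUL1. These are RNA ratios and not a measure of cell death.

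**Figure D4:**
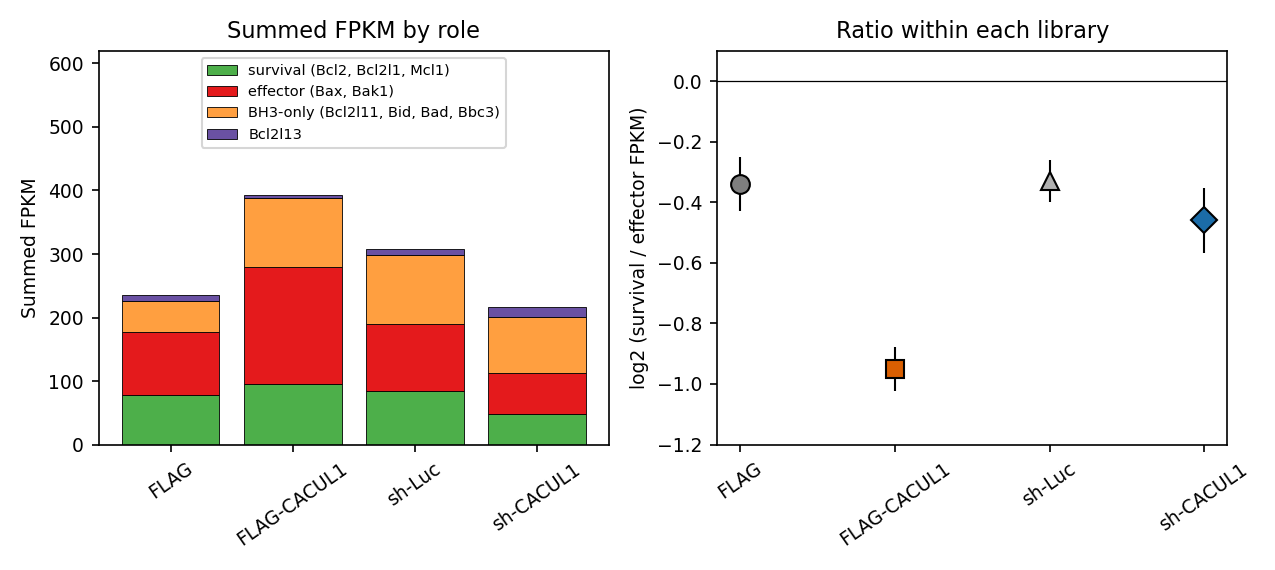
Left, summed FPKM of the members by role in each library (stacked bars from 0); right, log2 of survival over effector FPKM within each library, with bars of 2 counting standard errors. FLAG-CACUL1 has the largest effector sum, 184 FPKM, and the lowest ratio, -0.95 on the log2 scale, against -0.34 in FLAG, -0.33 in sh-Luc and -0.46 for sh-CACUL1.

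The BH3-only genes took a growing share from FLAG to the hairpin lines. They summed to 48.4 FPKM in FLAG against 109 in FLAG-CACUL1, and 109 in sh-Luc against 87.3 in sh-CACUL1, which is 20.5%, 27.8%, 35.3% and 40.3% of the members' FPKM. Relative to survival RNA the sum was 0.619, 1.15, 1.29 and 1.83. With less CACUL1 the log2 of this ratio was higher by 0.50 against sh-Luc and by 1.57 against FLAG, and with more by 0.89 against FLAG but lower, at -0.17, against sh-Luc. Most of the low BH3-only sum of FLAG lies in Bad and Bid, the genes with low FLAG levels. The ratio also depends on the survival sum, which was 47.6 FPKM in sh-CACUL1 against 84.1 in sh-Luc and 78.2 in FLAG. Against sh-Luc the BH3-only sum itself was lower in sh-CACUL1, while the ratio was higher.

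Of 19 other BCL2 family genes, 10 had a row and the rest were not analysed here. With more CACUL1, 1 of the 10 passed 2-fold and was lower, where 14.7% of all genes passed. With less CACUL1 1 passed and was higher, where 21.3% did. The list medians were 0.06 and 0.01. The gene lower with more CACUL1 was Bnip3, a hypoxia-induced mitophagy receptor, at 608 FPKM in FLAG against 148 in FLAG-CACUL1, and 37.3 in sh-Luc against 57.1 in sh-CACUL1. FLAG stood far above the rest, so that the log2 difference of FLAG-CACUL1 was -2.03 against FLAG and 1.96 against sh-Luc. In the knockdown Bnip3 was 0.60 as deposited, 1.06 with median-of-ratios scaling and -3.39 with FLAG as the control. Its relative Bnip3l, also a mitophagy receptor, was 96.1, 53.6, 36.7 and 41.2 FPKM in the same order, again highest in FLAG.

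The survival gene Bcl2l2, which encodes BCL-W, also had both controls between the lines without a fold limit, an order found in 13.0% of all genes. It measured 17.0 FPKM in FLAG against 26.9 in FLAG-CACUL1, and 19.9 in sh-Luc against 14.3 in sh-CACUL1, with log2 differences of 0.63 and -0.45, the latter -0.01 with median-of-ratios scaling. The BH3-only gene Bmf measured 4.04, 6.93, 5.69 and 4.28 FPKM, with 0.65 and -0.34, the latter 0.05 with that scaling. Bok, an effector-like protein, was at 7.34, 4.27, 10.1 and 7.35 FPKM, with differences of -0.66 and -0.41, the latter 0.01 with that scaling.

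The rest of that list were Bcl2l15, Bcl2l12, Becn1, Bnip1 and Bnip2. Bcl2l15, the gene past 2-fold with less CACUL1, was at 0.119 FPKM in FLAG against 0.615 in FLAG-CACUL1, and 0.0699 in sh-Luc against 1.33 in sh-CACUL1. Bcl2l12 lay between 4.14 and 4.98 FPKM. The autophagy gene Becn1, whose protein binds BCL2, lay between 29.8 and 42.0 FPKM, with log2 differences of 0.10 and -0.14, which became -0.03 and 0.32 with that scaling. Bnip1 had -0.82 and 0.21, and Bnip2 0.33 and -0.74.

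Of 50 genes that act around the family in cell death, all had a row. With more CACUL1, 2 were at least 2-fold higher and 5 lower, together 14.0%, where 14.7% of all genes passed. With less CACUL1, 4 were higher and 6 lower, together 20.0%, where 21.3% of all genes passed, and the split became 7 higher and 3 lower with quantile and 8 higher and 2 lower with median-of-ratios scaling. The shares are near those of all genes. The medians were -0.01 and -0.34, against 0.09 and -0.30 for all genes.

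Downstream of the members stand the proteins that mitochondria release. Cycs, which encodes cytochrome c and also serves respiration, measured 51.8 FPKM in FLAG against 30.7 in FLAG-CACUL1, and 39.2 in sh-Luc against 154 in sh-CACUL1, with log2 differences of -0.74 and 1.95. Aifm1 was higher with less CACUL1 (1.31), but -0.01 with FLAG as the control. Apaf1, the scaffold of the apoptosome, was lower (-1.17), at 1.27 against 4.10 FPKM, but short of 2-fold with median-of-ratios scaling (-0.85). With more CACUL1 the channel gene Vdac1 (-1.43) was lower, at 136 against 368 FPKM in FLAG, but sh-Luc had 132 FPKM, against which it was 0.04. The nuclease gene Endog (-2.96), at 0.0786 FPKM in FLAG-CACUL1, stood below 1 FPKM there.

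Of the caspases, Casp6 passed 2-fold with more CACUL1. It measured 35.8 FPKM in FLAG and 12.3 in FLAG-CACUL1, a log2 difference of -1.47, but 17.7 in sh-Luc, against which it was -0.50. With less CACUL1 Casp6 was lower too, at 8.51 FPKM. The log2 difference was -0.98 against sh-Luc, -0.54 with median-of-ratios scaling and -1.95 against FLAG. Among 5 inhibitors of apoptosis none passed in either comparison as deposited. Birc2 passed with less CACUL1 under median-of-ratios scaling (1.22). Against the other control Birc5 was lower with more CACUL1 (-1.82) and Birc3 lower with less (-1.22). Of 8 death receptor genes and adaptors, Cflar, an inhibitor of caspase-8, was higher with more CACUL1 (1.09), but short of 2-fold with median-of-ratios scaling (0.97) and against sh-Luc (0.30), and none passed with less.

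Of 21 regulators of the members, 3 (14.3%) passed 2-fold with more CACUL1 and 6 (28.6%) with less, where 14.7% and 21.3% of all genes did. Akt1, whose kinase phosphorylates BAD, measured 80.4 FPKM in FLAG against 198 in FLAG-CACUL1, and 148 in sh-Luc against 57.4 in sh-CACUL1, with log2 differences of 1.29 and -1.35, the latter -0.89 with median-of-ratios scaling. With the other control they were 0.41 and -0.48, both short of 2-fold. Pim3, another kinase that phosphorylates BAD, ran the other way, at 22.5, 5.64, 15.7 and 95.3 FPKM, with -1.82 and 2.53, or -1.33 and 2.04 with the other control. Without a fold limit, the controls lay between the lines for both genes. Akt1 had the order of Bax, found in 13.0% of all genes, and Pim3 that of Bcl2l13, found in 6.82%. Pim1 was lower with more CACUL1 (-2.01), but at 0.781 FPKM in sh-Luc, against which it was 0.92.

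With less CACUL1, 3 transcription factors known to act on members were at least 2-fold lower as deposited. Foxo3 and Ddit3 but not Trp53 passed with median-of-ratios scaling too (-1.49, -1.21 and -0.77). Another transcription factor of the list, Foxo1, was -0.05 as deposited and 0.37 with that scaling. Trp53, whose protein induces Bax and Bbc3, measured 24.4 FPKM in FLAG against 44.7 in FLAG-CACUL1, and 67.0 in sh-Luc against 27.9 in sh-CACUL1, a log2 difference of -1.23 in the knockdown but 0.19 with FLAG as the control. Foxo3, a regulator of Bcl2l11 and Bbc3, measured 15.2, 14.8, 13.8 and 3.00 FPKM, a difference of -1.89, or -2.02 with FLAG as the control. In the knockdown Bcl2l11 was -0.39 and Bbc3 0.997 against sh-Luc, and a link of either to Foxo3 was not tested. Ddit3, the stress factor CHOP, measured 820, 447, 216 and 67.0 FPKM, a difference of -1.68, or -3.59 with FLAG as the control. Bcap31, an endoplasmic reticulum protein that binds BCL2, was higher (1.17), at 269 FPKM against 119, with 266 in FLAG, against which it was 0.02.

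**Figure D5:**
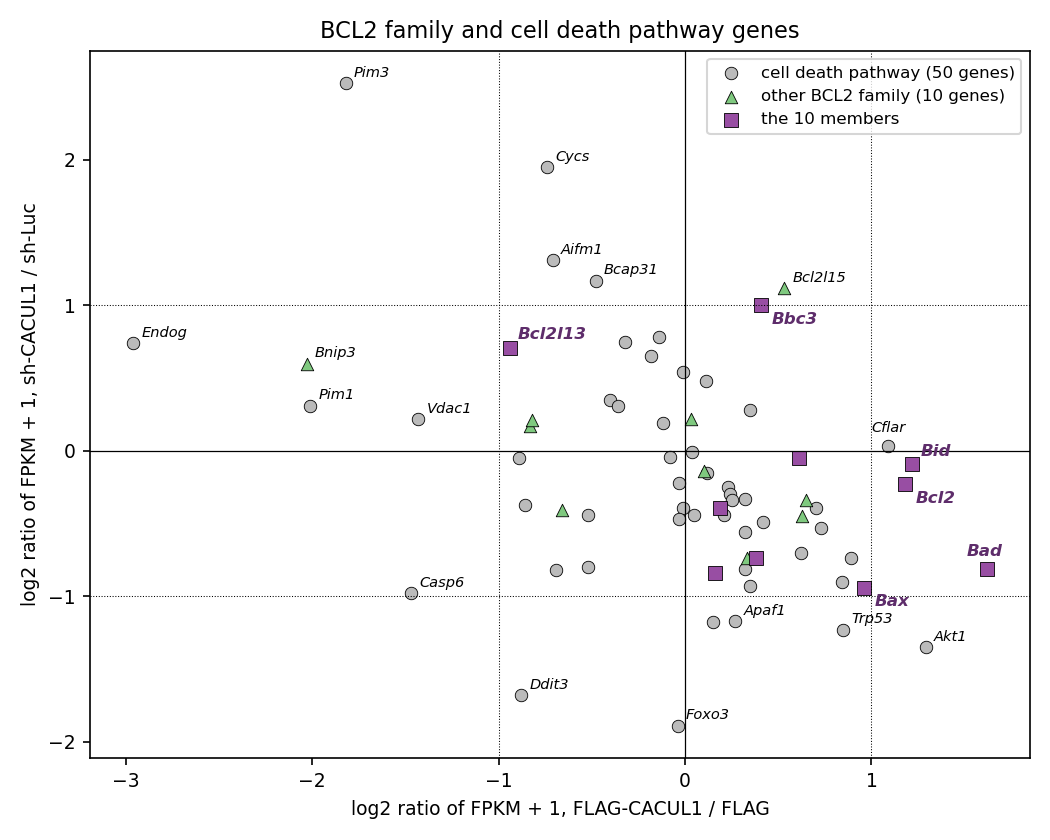
log2 ratio of FPKM + 1 in FLAG-CACUL1 against FLAG (horizontal) and in sh-CACUL1 against sh-Luc (vertical) for the 10 members (squares), 10 other BCL2 family genes (triangles) and 50 cell death pathway genes (circles), with dotted lines at 2-fold and names at most genes past 2-fold and at 6 members. As deposited, Akt1 and Pim3 pass 2-fold in both comparisons, Akt1 in neither with the other control, and none of the 10 members passes in both. Under median-of-ratios scaling Akt1 passes only with more CACUL1, while Pim3, Bnip3, Endog, Ddit3 and the member Bcl2l13 (-1.06 and 1.14) pass in both.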

How the data were processed

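RNA-seq of 4 samples, 1 per line, was used. The authors deposited FPKM values for 13110 rows of RefSeq transcripts per sample. The library work and sequencing were done by a company. The genome build in the submitters' processing notes is mm10, and the aligner and the program behind FPKM are not given in the sources used here. The study's methods mention a filter on the results without its criterion.

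RefSeq identifiers were matched to symbols through GENCODE M21, leaving 196 rows without a symbol and 8 with more than 1, and rows of 1 symbol were summed. Coordinates are those of RefSeq on GRCm38.p6. Fold changes are log2 ratios of FPKM with a pseudocount of 1, counted at 2-fold, the cut-off of the study. Depth came from the spacing of FPKM multiplied by length over rows that name 1 transcript, 3000 bases or longer. Between 50.6% and 64.7% of these values lay within 0.1 of a whole multiple, so counts were not recovered, no count test was run, and intervals are approximate (Poisson for levels, conditional binomial for ratios, on the shortest transcript of a row).

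The members and lists were chosen with earlier results of these data known. Named are all members, all other family genes with a row and the pathway genes past 2-fold, of which 1 is not reported here. The counting of differences was tested on simulated data. Python 3.11.15, numpy 2.4.6, scipy 1.17.1, pandas 2.3.3 and matplotlib 3.10.9 were used.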

Additional observations from a re-analysis of the deposited data

How the results depend on the processing

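With 1 library per line no library could be left out. No paired analysis was possible because each line had a single sample and the shared number 1 pairs nothing. Alternatives were pseudocounts of 0.1 and 0, filters at 1 FPKM, 2 scalings, exchanged controls, 1.5-fold as the limit, and the row of highest mean for rows of 1 symbol.

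The 3 members past 2-fold with more CACUL1 became 1 with the other control (9.9% of all genes) and 6 at 1.5-fold. They were 2 to 4 elsewhere, where between 14.1% and 28.8% of all genes passed. The 0 members with less CACUL1 became 1 with a pseudocount of 0.1, with none or with the other control (31.8%, 36.7% and 22.9% of all genes), 2 with quantile or median-of-ratios scaling (17.3% and 16.9%) and 6 at 1.5-fold. Of the other family genes, 1 with more CACUL1 became 2 with a pseudocount of 0.1, with none or with the other control (24.2%, 28.8% and 9.9% of all genes). It became 6 at 1.5-fold. The 1 with less CACUL1 became 0 at 1 FPKM in all samples (23.0%) and 2 with median-of-ratios scaling (16.9%). It became 3 with the other control (22.9%) or at 1.5-fold. The pathway genes, 7 and 10, became 19 and 22 at 1.5-fold. At that cut-off 34.3% and 44.4% of all genes passed. The log2 survival over effector difference of -0.61 was -0.44 without Mcl1 and between -0.62 and -0.58 elsewhere. Bid with more CACUL1 reversed to -0.36 with the other control, as the report states. The causes were not tested. Using the row with the highest mean could not move a member value, since 0 members had more than 1 row.

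Bcl2 rested on about 32 to 124 fragments and is the least precise value. The pseudocount understates differences of low genes, and FPKM hold shares of RNA, not amounts per cell.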

Other observations

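Genes with the profile most like those of the members past 2-fold were ranked by the Euclidean distance of centred log2(FPKM + 1) over the 4 libraries, as a description. Nearest to Bad were Abcf2 (distance 0.177), Ctdsp1 (0.185) and Rsu1 (0.185), where the median over 9562 genes was 1.35. Abcf2 measured 14.2 FPKM in FLAG against 39.7 in FLAG-CACUL1, and 41.3 in sh-Luc against 25.8 in sh-CACUL1, so that it too was lowest in FLAG. Nearest to Bid were the splicing factor gene Srsf3 (0.101), the S6 kinase gene Rps6kb1 (0.105) and Nolc1 (0.114), against a median of 1.39. Srsf3 measured 19.5, 45.6, 64.5 and 55.8 FPKM in the same order of libraries. Nearest to Bcl2 was Fam102a (0.0663), at 8.51, 20.1, 12.6 and 10.4 FPKM, followed by Atp6v1d (0.112) and Ddhd1 (0.118), against a median of 1.04 over 9563 genes. With 4 libraries many genes share a profile.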
